A study of Mus musculus with 4 samples.

Results

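The subject is a set of 10 genes whose proteins start, strengthen or restrain T cell responses: the PD-1 ligand genes Cd274 (PD-L1) and Pdcd1lg2 (PD-L2), the costimulatory ligand genes Cd80, Cd86 and Icosl, the VISTA gene, listed under its older symbol 4632428N05Rik (now Vsir), Havcr2 (TIM-3) with its partner Lgals9 (galectin-9), and Pvr and Pvrl2 (now Nectin2). They were chosen by name from the 23420 gene symbols of the table, and all 10 were found. Each was among the 12463 genes that passed the filter on low values, which asked for a normalised read count of at least 10 in at least 2 libraries. Pdcd1lg2 stood close to that limit and would have passed through its EpiKO libraries alone.

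RNA was sequenced from myeloid cells of cutaneous squamous cell carcinomas grown orthotopically, in the skin, in mice of strain FVB/N, sorted for the myeloid integrin CD11b and for CD200R1, the receptor of the surface protein CD200. The WT group holds 2 libraries from tumours of genotype WT (wild type), where tumour cells carry CD200. The EpiKO group holds 2 libraries from tumours of genotype K14Cre;CD200fl/fl, in which a Cre recombinase under the keratin 14 promoter of epidermal cells removes a floxed Cd200. The sources used here do not say whether WT mice carried the floxed allele or the Cre, how old the mice were and of which sex, or whether a library came from 1 mouse or from a pool. P-values therefore measure only the spread between these libraries, which may be technical. The sort selected for CD200R1, so cells without that receptor were not its target. Marker genes of keratinocytes and fibroblasts still had reads, as given below. The comparison of EpiKO with WT asks which transcripts of CD200R1 positive cells differ when the tumour epidermis lacks CD200.

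T cells need a signal through CD28, which binds CD80 and CD86 on antigen-presenting cells, in addition to the signal of their antigen receptor. CTLA-4 binds the same ligands and restrains the response, and ICOS ligand sustains T cells that were already activated. PD-L1 and PD-L2 bind PD-1 and dampen T cell activity. VISTA and TIM-3 are inhibitory surface proteins that myeloid cells also carry, and galectin-9 is a secreted lectin that binds TIM-3. PVR and nectin-2 bind the activating receptor DNAM-1 and the inhibitory receptor TIGIT. Macrophages of many tumours express several of these genes, and interferon gamma is a well-known inducer of PD-L1.

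The libraries held between 15884132 and 21244158 reads assigned to genes. The myeloid markers Itgam, Csf1r, Cd68 and Lyz2 were abundant in all 4 libraries, whereas the T cell receptor complex genes Cd3e, Cd3d, Cd3g and Cd247 had between 0 and 2 reads in each. Cd200, the targeted gene, stood at 92.7 and 59.7 in WT, against 17.2 and 15.1 in EpiKO, but the sorted cells are not those in which the keratin 14 promoter acts, so the labels cannot be checked with it. Cd200r1, the receptor used for the sort, stood at 318 and 293 in WT, against 1101 and 612 in EpiKO. Keratinocyte genes were high in WT replicate 1: 13 markers summed to 6602 in this library, to 142 in the other WT library, and to 104 and 78.4 in EpiKO. The fold changes of the 10 genes without this library are given at the end. In RNA from a sorted population, fewer cells that express a gene and less RNA per cell cannot be told apart.

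None of the 10 genes was called in EpiKO against WT by limma with Benjamini-Hochberg adjustment over all tested genes, at an adjusted p under 0.05, where 0.947% of all tested genes were called. At an unadjusted p under 0.05, 3 of the 10 passed (Cd274, Pdcd1lg2 and Havcr2), against 15.6% of all tested genes. On the recovered reads, edgeR called 0 of the 10, against 0.842% of all genes. DESeq2 called 2, Cd274 higher and Havcr2 lower, against 6.85% of all genes. The libraries of the 2 groups did not overlap for 4 of the 10: Cd274, Pdcd1lg2 and Lgals9 were above WT in both EpiKO libraries and Havcr2 was below, as were 23.3% and 23.8% of all tested genes. Across all tested genes, 47.1% showed no overlap, so the 40% among these genes was near the background. The median log2 fold change of the 10 genes was 0.19, and that of all tested genes was -0.0021. With 2 libraries a group, the smallest p of an exact two-sided permutation test is 0.333, so the p-values rest on the spread shared across genes.

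**Figure D1:**
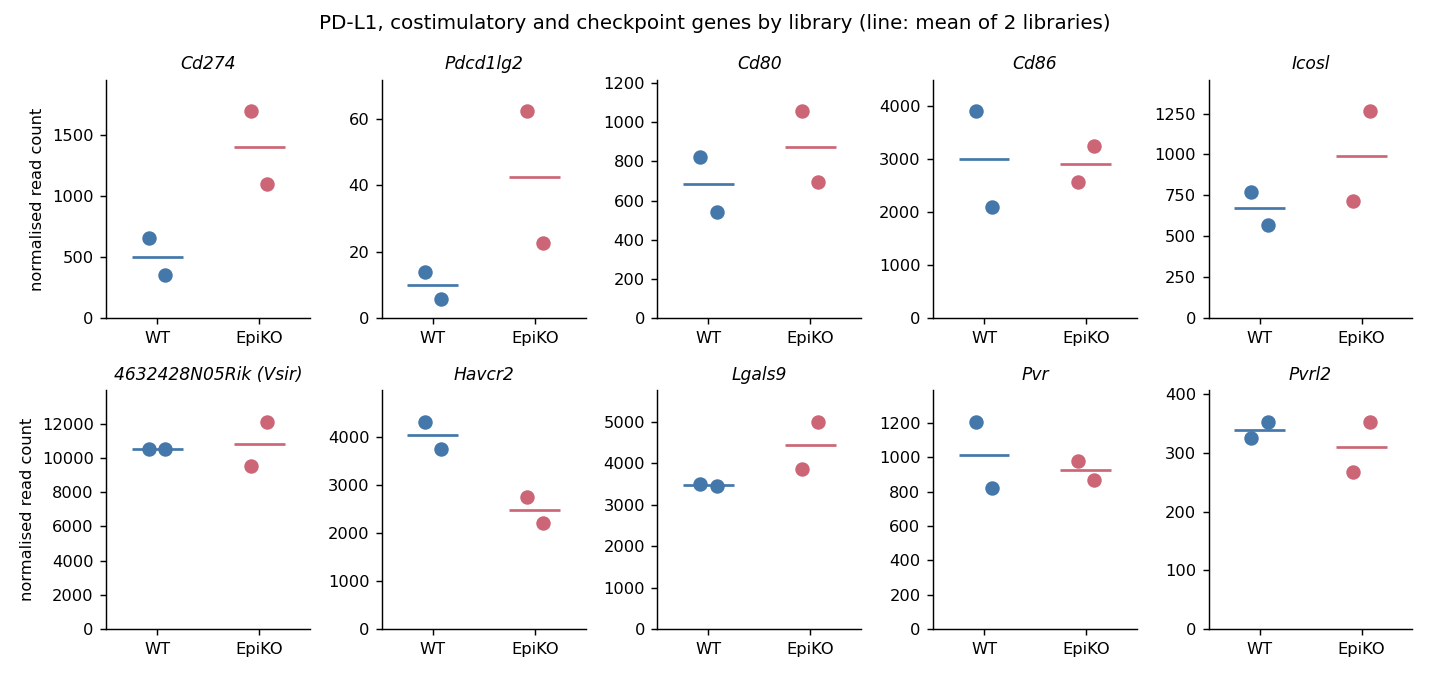
Normalised read count (vertical axes, each from 0) of the 10 genes in the 2 WT and 2 EpiKO libraries, 1 panel per gene, with a point per library and a line at the mean of a group. Both EpiKO points of Cd274, at 1701 and 1100.1, lie above both WT points, at 657 and 352, and the EpiKO points of Havcr2 lie below its WT points, whereas the groups overlap for Cd80, Cd86, Icosl, 4632428N05Rik, Pvr and Pvrl2.

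The ligands of PD-1 had the largest positive fold changes of the 10 genes. Cd274, which encodes PD-L1, had normalised read counts of 657 and 352 in WT replicates 1 and 2 and of 1701 and 1100.1 in EpiKO replicates 1 and 2. Both EpiKO libraries were above both WT libraries, and the lower EpiKO library was 1.67 times the higher WT library. The replicates of a group differed as well, by 1.87 times in WT and by 1.55 times in EpiKO. The WT mean was 505 ± 216 (SD, n = 2), and the EpiKO mean of 1400.5 ± 425 (SD, n = 2) was 2.77 times as high. The log2 fold change was 1.51 (SE 0.363, limma adjusted p = 0.151), and the 95% interval of the fitted fold ran from 1.48 to 5.44. That gene ranked 759th of the 12463 tested genes by p, and 95.3% of tested genes had an equal or smaller absolute log2 fold change. By DESeq2 the adjusted p was 0.00140, and by edgeR it was 0.168. Without WT replicate 1, the library with keratinocyte transcripts, the log2 fold change of Cd274 was 1.95. That was the highest value when each library was left out in turn, and the lowest was 1.06, without WT replicate 2. WT replicate 1 was above WT replicate 2 for 9 of the 10 genes, so leaving it out raised the log2 fold change of those 9.

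Pdcd1lg2, which encodes PD-L2, a second PD-1 ligand known mainly from dendritic cells and macrophages, was close to the detection limit. It had values of 13.9 and 5.88 in WT, against 62.4 and 22.7 in EpiKO, from 12, 7, 58 and 24 reads. Both EpiKO values exceeded both WT values, but the EpiKO libraries differed by 2.75 times from each other. The log2 fold change of Pdcd1lg2 was 1.94 (SE 0.686, limma adjusted p = 0.273). Summed over a group, there were 19 WT reads and 82 EpiKO reads, which gave a ratio of 4.46 with an exact binomial 95% interval of 2.68 to 7.78 for counting error only. The 95% interval of the limma fold, which includes the spread between libraries, was wider, from 1.14 to 12.8. Per kilobase of exon, Cd274 exceeded Pdcd1lg2 by 25.6 and 32.4 times in WT and by 14.7 and 26.3 times in EpiKO, so Cd274 supplied nearly all PD-1 ligand transcript in each library.

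Cd274 and Pdcd1lg2 are neighbours on chromosome 19 of mm10. In GENCODE M21, Cd274 extends from 29367455 to 29388095 and Pdcd1lg2 from 29410919 to 29471161, both on the plus strand. Their promoter windows, 250 bases before to 50 after the RefSeq start of each gene on GRCm38.p6, are shown. These neighbours both encode PD-1 ligands and had higher values in both EpiKO libraries. Lgals9 also had higher values in both EpiKO libraries, and its window is not shown. Capitals mark matches to the motifs searched on both strands.

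Cd274, chr19:29367188-29367487, plus strand: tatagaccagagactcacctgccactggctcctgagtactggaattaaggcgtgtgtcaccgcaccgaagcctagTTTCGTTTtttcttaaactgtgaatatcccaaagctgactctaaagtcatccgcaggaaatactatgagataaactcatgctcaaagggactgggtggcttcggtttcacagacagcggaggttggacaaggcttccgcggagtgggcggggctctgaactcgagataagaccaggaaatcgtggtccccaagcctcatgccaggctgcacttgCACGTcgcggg
Pdcd1lg2, chr19:29410669-29410968, plus strand: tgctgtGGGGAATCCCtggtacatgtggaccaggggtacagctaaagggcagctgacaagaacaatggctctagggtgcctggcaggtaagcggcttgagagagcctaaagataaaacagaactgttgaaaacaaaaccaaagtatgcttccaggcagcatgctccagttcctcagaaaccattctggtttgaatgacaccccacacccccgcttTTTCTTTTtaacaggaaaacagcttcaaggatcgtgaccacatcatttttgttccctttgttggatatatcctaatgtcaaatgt

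The motifs were AANNGAAA, the core of sites for interferon regulatory factors, TTCNNNGAA, the element bound by STAT dimers, TGANTCA for AP-1, ACGTG, the core of hypoxia response elements, and the NF-kB consensus. The Cd274 window held AANNGAAA on the minus strand at 175 to 168 bases before the start, and ACGTG on the minus strand at bases 40 to 44 counted from the start as base 1. In the Pdcd1lg2 window an NF-kB match lay 244 to 235 bases before the start and AANNGAAA, on the minus strand, 35 to 28 bases before it. No 2 of these matches overlapped. Such matches are common: of 32817 promoter windows of the same length, 23.9% held AANNGAAA, 19.6% ACGTG, 8.29% TTCNNNGAA, 7.81% TGANTCA and 4.50% the NF-kB consensus. RefSeq windows were found for 8 of the 10 genes, and AANNGAAA was present in 4 of them, those of Cd274, Pdcd1lg2, Cd80 and Lgals9. The matches describe letters in these windows and no binding was measured.

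The tested neighbours of the PD-1 ligand genes had smaller fold changes. Plgrkt, a plasminogen receptor gene that starts at 29367390 and runs on the minus strand, away from Cd274, had values of 787 and 525 in WT, against 1004 and 781 in EpiKO, with a log2 fold change of 0.46 (SE 0.240). Jak2, the kinase gene of interferon gamma receptor signalling, had 1052 and 1009.5 in WT, against 1356 and 1011 in EpiKO, and a log2 fold change of 0.18 (SE 0.166). Insl6, a relaxin family gene, had a log2 fold change of -0.10 (SE 0.602). On the far side of Pdcd1lg2, the log2 fold change was 0.39 (SE 0.156) for C030046E11Rik (now Ric1) and 0.092 (SE 0.146) for Ermp1. The adjusted p of these 5 neighbours lay between 0.323 and 0.960 (limma), and whether they differed from Cd274 was not tested.

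Cd80, Cd86 and Icosl, the ligands of CD28, CTLA-4 and ICOS, overlapped between the groups. Cd80 had values of 824 and 542 in WT, against 1058 and 694 in EpiKO, so EpiKO replicate 2 fell within the WT range. Its log2 fold change was 0.36 (SE 0.291, limma adjusted p = 0.649), with a 95% interval of the fold from 0.761 to 2.16. Cd86 had 3918 and 2105 in WT, against 2583 and 3254 in EpiKO, and the 2 WT libraries enclosed both EpiKO libraries. For Cd86 the log2 fold change was 0.014 (SE 0.320, limma adjusted p = 0.992), and the interval of the fold, 0.569 to 1.79, still allows a change of that size in either direction. Icosl stood at 773 and 572 in WT, against 718 and 1266 in EpiKO, with EpiKO replicate 2 alone above WT. The log2 fold change of Icosl was 0.52 (SE 0.312, limma adjusted p = 0.520).

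Within each library, the balance of PD-L1 and CD28 ligand transcripts can be read per kilobase of exon. The ratio of Cd274 to Cd80 was 0.815 and 0.664 in WT, against 1.64 and 1.62 in EpiKO. The ratio of Cd274 to Cd86 was 0.170 and 0.169 in WT, against 0.666 and 0.342 in EpiKO. Both ratios were above WT in both EpiKO libraries. The ratio of Cd86 to Cd80 did not separate the groups, at 4.81 and 3.93 in WT, against 2.47 and 4.74 in EpiKO. These pairs were picked after the values were seen and the ratios were not tested.

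The VISTA gene, 4632428N05Rik, was the most abundant of the 10, and its groups overlapped. It had values of 10524 and 10500.5 in WT, and of 9559.65 and 12136 in EpiKO, and the EpiKO libraries enclosed both WT libraries. The log2 fold change was 0.035 (SE 0.154, limma adjusted p = 0.945), and the 95% interval of the fold ran from 0.781 to 1.34.

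Havcr2 and Lgals9, a receptor and its ligand, had fold changes of opposite sign. Havcr2, the TIM-3 gene, had values of 4326 and 3762 in WT, against 2756 and 2209.6 in EpiKO. Both EpiKO libraries were below both WT libraries, and the lower WT library was 1.37 times the higher EpiKO library. The log2 fold change was -0.71 (SE 0.155, limma adjusted p = 0.120), the smallest adjusted p of the 10 genes, with a 95% interval of the WT over EpiKO fold from 1.24 to 2.15. DESeq2 gave an adjusted p of 0.00709 and edgeR one of 0.131. Lgals9 had values of 3495 and 3447 in WT, against 3870.2 and 5011 in EpiKO. Its groups did not overlap, although EpiKO replicate 1 was only 1.11 times the higher WT library, and the log2 fold change was 0.34 (SE 0.155, limma adjusted p = 0.379). The ratio of Lgals9 to Havcr2 per kilobase of exon was 1.03 and 1.17 in WT, against 1.79 and 2.89 in EpiKO, a description of a pair chosen after the values were seen.

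Pvr and Pvrl2, the ligands of DNAM-1 and TIGIT, had the smallest absolute fold changes after Cd86 and 4632428N05Rik. Pvr stood at 1208 and 818 in WT, against 979 and 868 in EpiKO, so both EpiKO libraries lay within the WT range. Its log2 fold change was -0.11 (SE 0.211, limma adjusted p = 0.869), and it was 0.17 without WT replicate 1, in which keratinocyte genes were high. Pvrl2 stood at 326 and 352 in WT, against 267 and 353 in EpiKO, with a log2 fold change of -0.14 (SE 0.183, limma adjusted p = 0.793). Part of the exon sequence of Pvrl2, 3.86%, is shared with an antisense gene, and 14.1% of that of Cd274 with another. The sources used here do not say whether counting used the strand, and without it a gene and its antisense partner cannot be separated.

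**Figure D2:**
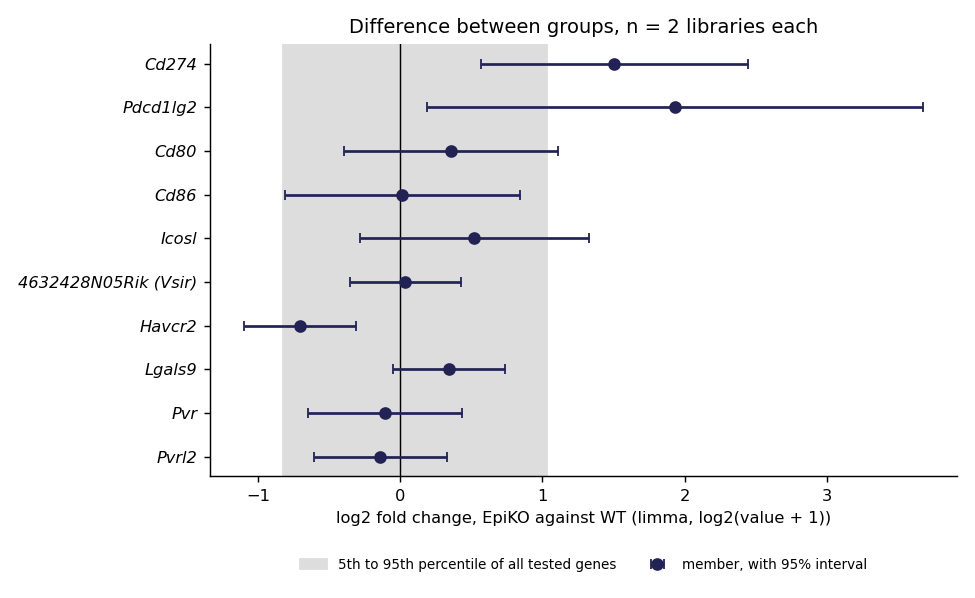
Log2 fold change of EpiKO against WT (horizontal axis) for the 10 genes, as points with 95% intervals from limma, over a grey band from the 5th to the 95th percentile of all tested genes, -0.82 to 1.03. Cd274 at 1.51 and Pdcd1lg2 at 1.94 lie beyond the band, Havcr2 at -0.71 lies inside it with an interval below 0, and the intervals of the other 7 include 0.

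Corrected for exon length, 4 genes supplied most of the transcripts of the set. In normalised reads per kilobase of exon, 4632428N05Rik ranged from 1907 to 2420.3 over the 4 libraries, Lgals9 from 1613 to 2345, Havcr2 from 812 to 1589.7 and Cd86 from 575 to 1070.1. Together they made up 82.2% to 90.4% of the sum over the 10 genes. The ranges of 4632428N05Rik and Lgals9 overlapped, as did those of Havcr2 and Cd86, whereas all values of Lgals9 were above all of Havcr2. Within a library, 4632428N05Rik was above Lgals9 in 4 of 4 libraries and Havcr2 above Cd86 in 3 of 4. Cd80 ranged from 146 to 286, Icosl from 124 to 274 and Pvr from 134 to 197, again with overlap. Pvrl2, at 76.4 to 101, lay below these 3 genes, and Pdcd1lg2, at most 31.8, was lowest. Cd274 ranged from 97.2 to 470, and its place in the order changed with the group. In WT its mean of 139 lay below those of Cd80 at 184, Pvr at 165 and Icosl at 146, whereas in EpiKO its mean of 387 was above those of Cd80 at 237, Icosl at 215 and Pvr at 151. Its share of the sum was 2.50% and 1.55% in WT and 7.10% and 4.06% in EpiKO. The share of Havcr2 was 21.9% and 22.1% in WT and 15.3% and 10.8% in EpiKO.

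**Figure D3:**
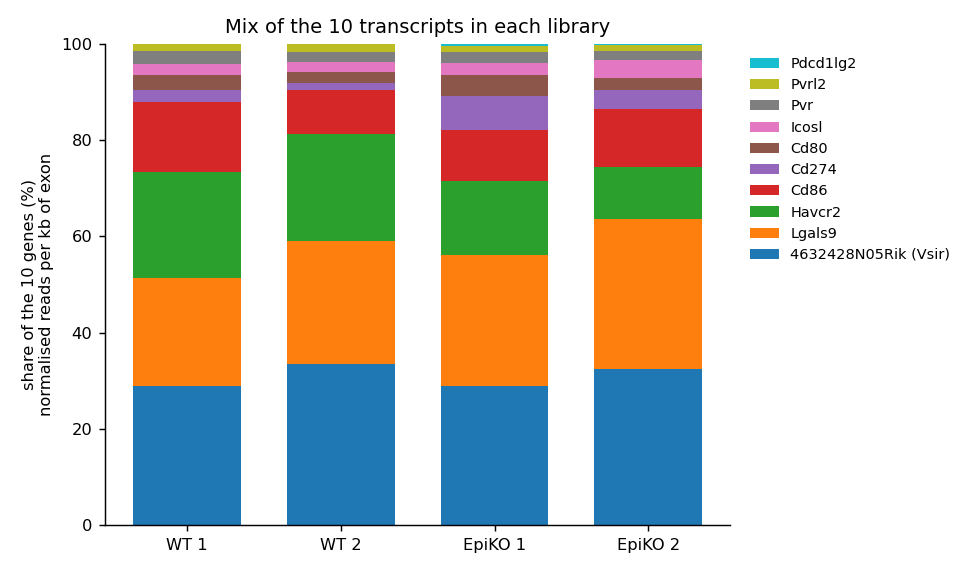
Share of each of the 10 genes in their summed normalised reads per kilobase of exon (vertical axis, percent), as stacked bars for the 4 libraries. The Cd274 layer is thicker in the EpiKO libraries, at 7.10% and 4.06%, than in the WT libraries, at 2.50% and 1.55%, and the Havcr2 layer is thinner.

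Most costimulatory and inhibitory receptor genes of T and NK cells had few reads. Of the 10 on that list, some of which bind other ligands, only Cd28 and Lag3 passed the filter on low values. Pdcd1, the PD-1 gene, had 14 reads in WT and 9 in EpiKO, each summed over the group, Ctla4 had 2 and 6, and Tigit had 2 and 0. Cd28 had values of 26.7 and 27.7 in WT, against 10.8 and 25.5 in EpiKO, with a log2 fold change of -0.67 (SE 0.525). Lag3, an inhibitory receptor that binds MHC class II, had 403 and 266 in WT, against 277 and 1502 in EpiKO. The high value of Lag3 in EpiKO replicate 2 was not shared by EpiKO replicate 1, and its log2 fold change was 0.98 (SE 0.807, limma adjusted p = 0.656).

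Of 28 further genes of the B7, butyrophilin and nectin families and of other checkpoint and paired receptors, 20 were tested and none was called by limma or edgeR. At an unadjusted p under 0.05, 5 passed, against 15.6% of all tested genes, with a median log2 fold change of 0.078 over the 20. Pilrb1, an activating paired receptor of myeloid cells, had values of 182 and 164 in WT, against 411 and 338 in EpiKO, with a log2 fold change of 1.11 (SE 0.172, limma adjusted p = 0.0647). Cd276, which encodes the B7 family ligand B7-H3, had 1353 and 1531 in WT, against 633 and 929 in EpiKO, with a log2 fold change of -0.91 (SE 0.208, limma adjusted p = 0.137). Pvrl3, the nectin-3 gene, was low, at 41.7 and 19.3 in WT, against 77.5 and 119 in EpiKO. DESeq2 called 3 genes of this list, Pilrb1 and Pvrl3 higher and Cd276 lower, against 6.85% of all genes. Vtcn1 and Btnl1, of the B7 and butyrophilin families, and Fgl1, a ligand of LAG-3, had no read in any library.

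Known regulators of PD-L1 had log2 fold changes on both sides of 0, with 10 positive and 13 negative. All 23 were tested, none was called by limma, edgeR or DESeq2, and 4 passed at an unadjusted p under 0.05, against 15.6% of all tested genes, with a median log2 fold change of -0.032. Of these 4, 3 were below WT in both EpiKO libraries, and Irf2, an interferon regulatory factor gene named to complete the count, was above, at 1247 and 1395 in WT, against 1671 and 1590 in EpiKO (log2 fold change 0.30, SE 0.113). The 3 lower genes were Socs1, an inhibitor of cytokine receptor signalling, at 124 and 111 in WT, against 64.6 and 51.0 in EpiKO, Rela, an NF-kB subunit, at 2301 and 2186 against 1523 and 1753, and the transcription factor gene Myc, at 1145 and 1387 against 762 and 1024. The adjusted p of the 3 lay between 0.151 and 0.286 (limma). Of the interferon gamma route, 2 genes chosen after their values were seen were not called either: the log2 fold change was -0.23 for the receptor gene Ifngr1 and -0.27 for the transcription factor gene Irf1. Cmtm6, whose protein protects PD-L1 from degradation, had one of 0.0094. Hif1a, the oxygen-regulated factor gene, stood at 4955 and 4922 in WT, against 9350 and 5359 in EpiKO. Its log2 fold change of 0.52 (SE 0.276) was the highest of the 23, and it was chosen after its values were seen.

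Of the regulators of CD80 and CD86, 4 had a positive log2 fold change and 8 a negative one, with a median of -0.26. Of 12 tested genes none was called by limma or edgeR, 6 passed at an unadjusted p under 0.05, against 15.6% of all tested genes, and 7 were below WT in both EpiKO libraries, where 23.8% of all tested genes were. Rel stood at 1230 and 1178 in WT, against 775 and 639.8 in EpiKO, a change in log2 units of -0.77 (SE 0.133, limma adjusted p = 0.0788). Nfkb2 stood at 3201 and 3186 in WT, against 2057 and 2123 in EpiKO, a change in log2 units of -0.61 (SE 0.101, limma adjusted p = 0.0733). Relb, the partner of Nfkb2 in the alternative NF-kB pathway, had a log2 fold change of -0.58 (SE 0.134). DESeq2 called Rel and Nfkb2 lower and Tlr4, the receptor of bacterial lipopolysaccharide, higher, against 6.85% of all genes.

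Mature dendritic cells carry PD-L1, PD-L2, CD80 and CD86 together, so other genes of that state are given beside them. Of 13 tested genes of that list none was called by limma or edgeR, 6 passed at an unadjusted p under 0.05, against 15.6% of all tested genes, and the median log2 fold change was -0.58. Of the 13 fold changes, 5 were positive and 8 negative. Among the 6, Relb, which had the smallest p, Ccr7, Cd40 and Tmem123 were lower in EpiKO, and Socs2 and Samsn1 were higher. Socs2, a cytokine signalling inhibitor, had values of 148 and 78.2 in WT, against 389.7 and 275 in EpiKO, a change in log2 units of 1.59 (SE 0.366, limma adjusted p = 0.138), and Samsn1, an adaptor gene, had 734 and 762 against 1452 and 1060.4. DESeq2 called both of them higher, against 6.85% of all genes called. Ccr7, a chemokine receptor gene of migrating dendritic cells, was chosen after its values were seen. It stood at 116 and 56.3 in WT, against 32.3 and 35.9 in EpiKO, from 100, 67, 30 and 38 reads. Of the 13 tested genes, 6 were below WT in both EpiKO libraries, as were 23.8% of all tested genes. In the other direction 4 were above, Socs2, Samsn1, Ccl17 and Cacnb3, as were 23.3% of all tested genes. Xcr1 and Clec9a, which define cross-presenting dendritic cells, had at most 2 reads in any library.

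**Figure D4:**
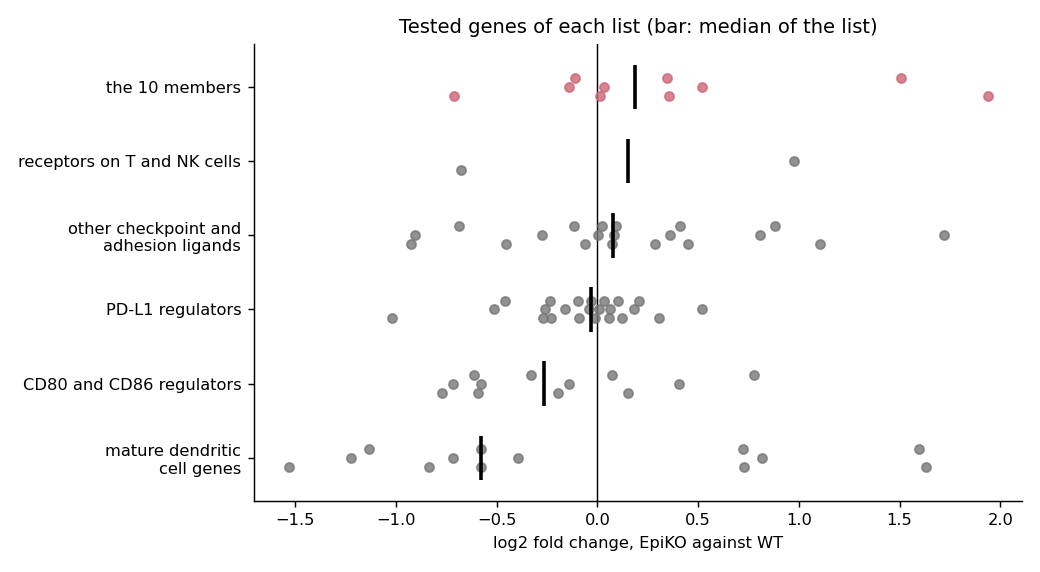
Log2 fold change of EpiKO against WT (horizontal axis) for each tested gene of 6 lists, with a bar at the median of a list; the 10 genes of the set are in red. The median is 0.19 for the 10 genes, -0.032 for the PD-L1 regulators, -0.26 for the regulators of CD80 and CD86 and -0.58 for mature dendritic cell genes, which lie on both sides of 0.

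Among all tested genes outside the set, Socs2 had the pattern most like Cd274 over the 4 libraries. Likeness was the root mean square difference of log2(value + 1) after centring each gene on its mean, which was 0.0635 for Socs2 and had a median of 0.865 over all tested genes. The next were AU022793 at 0.106, the interleukin-36 receptor gene Il1rl2 at 0.1097, the growth factor gene Fgf2 at 0.1104 and Angptl4, an inhibitor of lipoprotein lipase, at 0.133. Il1rl2 had values of 277 and 141 in WT, against 602 and 392 in EpiKO, and Angptl4 had 48.7 and 32.8 against 143 and 101. Fgf2 was near the detection limit, at 8.11 and 3.36 in WT, against 19.4 and 11.3 in EpiKO. All 5 share with Cd274 the order of the libraries: EpiKO replicate 1 highest, then EpiKO replicate 2, WT replicate 1 and WT replicate 2. With 4 libraries and 12463 genes, close matches of this kind are a description only. Pdcd1lg2 was at 0.362 from Cd274 by the same measure and Cd80 at 0.583.

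Transcripts of other cell types varied between libraries beside these results. The keratinocyte markers of WT replicate 1, led by Krt14 and Krt5, summed to 84.2 times their level in EpiKO replicate 2. Without WT replicate 1, the log2 fold change was 1.95 for Cd274, 2.49 for Pdcd1lg2, -0.61 for Havcr2 and 0.35 for Lgals9, whose sign the non-overlap of the groups fixes. It was 0.66 for Cd80, 0.74 for Icosl, 0.46 for Cd86, 0.037 for 4632428N05Rik, 0.17 for Pvr and -0.20 for Pvrl2, and none of the 10 was called (limma). Neutrophil markers summed to 1542 and 3038 in WT and to 4532 and 2451.5 in EpiKO. Mmp8, at 3757, made up most of the sum in EpiKO replicate 1, the library with the highest Cd274. Of the 8 tested neutrophil markers, 2 had a positive log2 fold change and 6 a negative one, with a median of -0.76. Csf3r, the other abundant marker of that list, stood at 1154 and 1215 in WT, against 514 and 1323 in EpiKO. Fibroblast markers, led by Col3a1 and Postn, summed to 21402 in EpiKO replicate 1 and to 30207 to 43863 in the other libraries. Over the 4 libraries, the summed level was 6686 to 9526 for dendritic cell markers (led by Naaa and H2-DMb2), 311 to 1923 for T cell markers (mostly Cd4, then Thy1), 155 to 609 for B cell markers (led by Cd22 and Cd79b) and 298 to 407 for endothelial markers (led by Pecam1 and Tie1). It was 76.5 to 167 for NK cell markers (led by Klrb1c and Klrk1) and 43.5 to 322 for mast cell markers (led by Hdc and Tpsb2), against 447873 to 621737 for myeloid markers (led by Lyz2 and C1qa). By limma and by edgeR, 1 marker of another cell type was called: Cd207, the langerin gene of Langerhans cells and some dendritic cells. Cd207 stood at 1201 and 590 in WT, against 23.7 and 23.6 in EpiKO, lower in both EpiKO libraries. Its fitted log2 change was -5.10 (SE 0.368, limma adjusted p = 0.0329). By limma without trend on all 4 libraries it was not called (adjusted p = 0.0609). Leaving out any 1 library ended the call, with adjusted p between 0.0707 and 0.128 and log2 fold changes between -5.61 and -4.58 (limma). Cd207 was chosen after its values were seen, because it was called. Of the 10 tested dendritic cell markers it was the 1 called by limma, edgeR and DESeq2. DESeq2, which called 6.85% of all genes, also called markers of other cell types. Retnlg (neutrophils), Krt14 and Sfn (keratinocytes) were lower, and Mmp8 (neutrophils) and Pdgfra (fibroblasts) were higher. Of the 13 myeloid markers, DESeq2 called 3 higher, Cd200r1, Fcgr3 and Mrc1, and none lower. By limma, 6 of these 13 had a positive log2 fold change and 7 a negative one, and none was called. The myeloid markers summed to 533907 and 447873 in WT, against 621737 and 587515 in EpiKO. Cd8a and Trat1 of the T cell list and Pax5 and Blk of the B cell list had no read. The part of all these cell type markers in the results for the 10 genes was not tested.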

How the data were processed

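The data were 4 RNA-seq libraries, 2 per group. Per the submitters' processing notes, the build was mm10 and the tools included STAR 2.5.2b, featureCounts 1.5.0-p3, bcl2fastq 2.17 and DESeq2; the sources used here do not name the annotation, the strand setting or the treatment of multiply aligned reads. As deposited, each gene has a signal, its read count divided by the size factor of the library. The values themselves show this: divided by the value of 1 read, 100% came out whole within 1e-06 reads. A read was worth 0.841 to 1.16, so 3 reads stand for 2.52 to 3.48. Of 23420 symbols, 7185 had no read.

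Values were tested as log2(value + 1) for 12463 genes with at least 10 in at least 2 libraries, by limma 3.58.1 in R 4.3.3 with trend and robust moderation, two-sided, with Benjamini-Hochberg adjustment over all tested genes and calls at an adjusted p under 0.05. Fold changes on this scale understate those of low genes. edgeR 4.0.16 (quasi-likelihood, TMM) and DESeq2 1.42.0 on the recovered reads were alternatives and called 105 and 854 genes; limma called 118. The other alternatives were pseudocounts, filters, normalizations, limma without trend, a threshold of 0.1 and leaving out each library. The fits were also run on simulated counts in which every gene had the same dispersion. That run cannot show how the fits perform at the spread of these libraries, and nothing is concluded from it. Positions and exon lengths are from GENCODE M21 (mm10), and promoters from RefSeq on GRCm38.p6.

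The 10 genes and the lists were chosen with earlier results of these data known. Of 197 list entries, 4 were found under another symbol and 2 were not found. Named by rule were the 10, Cd200 and Cd200r1, the 5 genes most like Cd274 and its tested neighbours. Of each list that holds no cell type markers, the rule took the genes called by limma and the 3 with the smallest p. Of each cell type it took the 2 most abundant markers. All other named genes, such as Hif1a, Cmtm6, Tlr4, Xcr1 and Pdcd1, were picked outside the rule with the values known, also where the text does not say so. The values of 1 list gene are not reported here. The labels carry no replicate numbers, so the numbers used here only name libraries.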

Additional observations from a re-analysis of the deposited data

How the results depend on the processing

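Under the 13 alternatives, Cd274, Pdcd1lg2 (12, since the filter at 50 removed it), Cd80, Icosl, Havcr2 and Lgals9 kept the sign of their log2 fold change; for Cd274, Pdcd1lg2, Havcr2 and Lgals9 the non-overlap of the groups fixes this where a library is left out. Leaving out each library gave 1.06 to 1.95 for Cd274, 1.23 to 2.65 for Pdcd1lg2 and -0.87 to -0.55 for Havcr2, with adjusted p from 0.156 to 0.591 (limma) and no call. Among the other settings the adjusted p lay between 0.00140 and 0.264 for Cd274 and between 0.00709 and 0.231 for Havcr2. DESeq2 called 1 of the 10 genes higher (Cd274, 1.47) and 1 lower (Havcr2, -0.70); no other setting called any, including a threshold of 0.1. The cause was not tested.

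The sign changed for 4 genes near 0. Cd86 was at -0.015 with equal library totals, -0.047 by edgeR and -0.045 by DESeq2, and between -0.43 and 0.46 when a library was left out. 4632428N05Rik lay between -0.14 and 0.21, Pvr between -0.39 and 0.17 and Pvrl2 between -0.34 and 0.061 when a library was left out. Over all genes, limma called 52 higher and 66 lower; without trend these were 13 and 18, with DESeq2 465 and 389, and at a threshold of 0.1 226 and 202. With a library left out, limma called 0 to 4 higher and 0 to 5 lower, where fewer libraries were tested and a group with 1 library borrowed its spread from the other. No paired analysis was possible because the labels carry no replicate numbers. With 2 libraries per group, and 19 reads of Pdcd1lg2 over both WT libraries, the precision is set by the spread between replicates and, for that gene, by depth.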
